A study of Saccharomyces cerevisiae with 8 samples.

Results

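The genes described here are 9 budding yeast genes of protein folding in the endoplasmic reticulum (ER) and of the unfolded protein response (UPR): HAC1, KAR2, LHS1, SIL1, JEM1, ERO1, PDI1, EUG1 and FPR2. They were chosen by gene identifier (YFL031W, YJL034W, YKL073W, YOL031C, YJL073W, YML130C, YCL043C, YDR518W and YDR519W, in that order) and are 9 of the 6212 identifiers in the deposited table. All 9 had a value on all 8 arrays.

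Proteins that enter the secretory pathway fold in the ER with the help of chaperones, and many acquire disulfide bonds there. When unfolded proteins accumulate, the ER membrane kinase Ire1 cuts the HAC1 mRNA, the tRNA ligase Trl1 joins its ends, and the Hac1 protein then activates genes for chaperones, oxidation enzymes and protein degradation. A ratio of HAC1 mRNA from an array does not show whether the message was spliced, so the values below bear on its abundance alone.

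The cells were Saccharomyces cerevisiae BY4741, a laboratory strain, and a pif1 mutant of it (pif1::KanMX), in which the gene for the Pif1 DNA helicase is replaced by a drug-resistance marker. Cultures grew in the rich medium YPD at 28 °C, and zinc chloride was present at 5 mM for 1 h where stated. The RNAs were hybridised in pairs on 2-colour arrays, giving 4 comparisons with 2 arrays each and the dyes exchanged between them: pif1 with zinc over pif1 without, wild type with zinc over wild type without, pif1 over wild type both with zinc, and pif1 over wild type both without zinc. The labels do not say how many mutant clones were used, nor whether replicates 1 and 2 were separate cultures, so p-values may measure technical spread only. In bulk cultures, fewer cells that express a gene and less of its mRNA per cell cannot be told apart.

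Ratios are given on the log2 scale, with the RNA named first on top, after centring each array on its median, so 1 is a 2-fold difference. Between 73.3% and 82.4% of the identifiers had a value on an array. The 2 arrays of a comparison correlated across genes at 0.573 (pif1 zinc), 0.868 (wild-type zinc), 0.439 (mutant with zinc) and 0.586 (mutant without zinc). The median SD within a pair was 0.284, 0.144, 0.139 and 0.134, in that order. The tests below share 1 spread over the arrays, although the pif1 zinc pair spread most. Fitted on its own 2 arrays, zinc in pif1 called 526 of all genes rather than 1338. Zinc in wild type called 1944 rather than 1403. Counts and shares of calls are therefore not comparable between the strains. Leaving out 1 array also changes the precision of the tests unequally. A call lost or kept that way is not particular to the gene, nor comparable between the strains. Where values are said not to overlap, the share of all genes doing so was not counted. PIF1 (YML061C) was at −3.72 as deposited on replicate 2 of the mutant arrays with zinc and at −4.90 on replicate 2 without zinc. It held placeholder values on replicate 1 of both and no value on the zinc arrays, and its sign gave the direction of the mutant ratios. The direction of the zinc ratios, and the strain that each came from, rest on the labels alone. Of the genes deleted or disabled in BY4741, LEU2 had a value on 0 arrays, MET15 on 1, URA3 on 6 and HIS3 on 8, and ratios carry no level that would check the strain further.

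The mutant arrays and the zinc arrays disagreed in 1 respect. By the labels, the zinc arrays (pif1 response minus wild-type response) and the mutant arrays (with zinc minus without) estimate the same difference. Across 3857 genes these 2 estimates correlated at −0.251, and 55.7% of genes had opposite signs. The lowest correlation between 2 arrays was −0.365, between wild-type zinc replicate 1 and replicate 2 of the mutant arrays labelled without zinc. The disagreement does not show which labels are at fault. Whether the media of the 2 mutant comparisons, or the strains of the 2 zinc comparisons, are exchanged in the labels was not tested. All comparisons, and the strains of the zinc responses, are therefore named by their labels below. Averages over both media, which do not depend on which was which, are given beside the mutant comparisons. The difference between the strains is also given with the media exchanged.

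After zinc HAC1 fell and KAR2 rose in both strains, and 4 more of the folding genes rose past the threshold in wild-type cells. Of these, ERO1 and SIL1 were above 0 on both pif1 arrays too. With the media as labelled, 0 of the 9 genes passed for the difference between the strains. In pif1 cells, 2 of the 9 genes passed the test (limma with Benjamini-Hochberg adjustment over all genes, adjusted p under 0.05): KAR2 rose and HAC1 fell. Of all genes tested in that comparison, 15.5% passed as higher, 15.8% as lower and 31.3% in either direction. In wild-type cells, SIL1, ERO1, KAR2, PDI1 and EUG1 rose and HAC1 fell, 6 of 9 genes, where 14.7% of all genes passed as higher, 15.6% as lower and 30.3% in either direction. The median ratio of the 9 genes was 0.30 in pif1 and 0.51 in wild type, beside 0.01 and 0.00 over all genes tested in those comparisons. Replicate numbers deviated together across comparisons, and with the number as a block 4 genes passed in pif1 (44.8% of all genes) and 8 in wild type (42.7%).

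**Figure D1:**
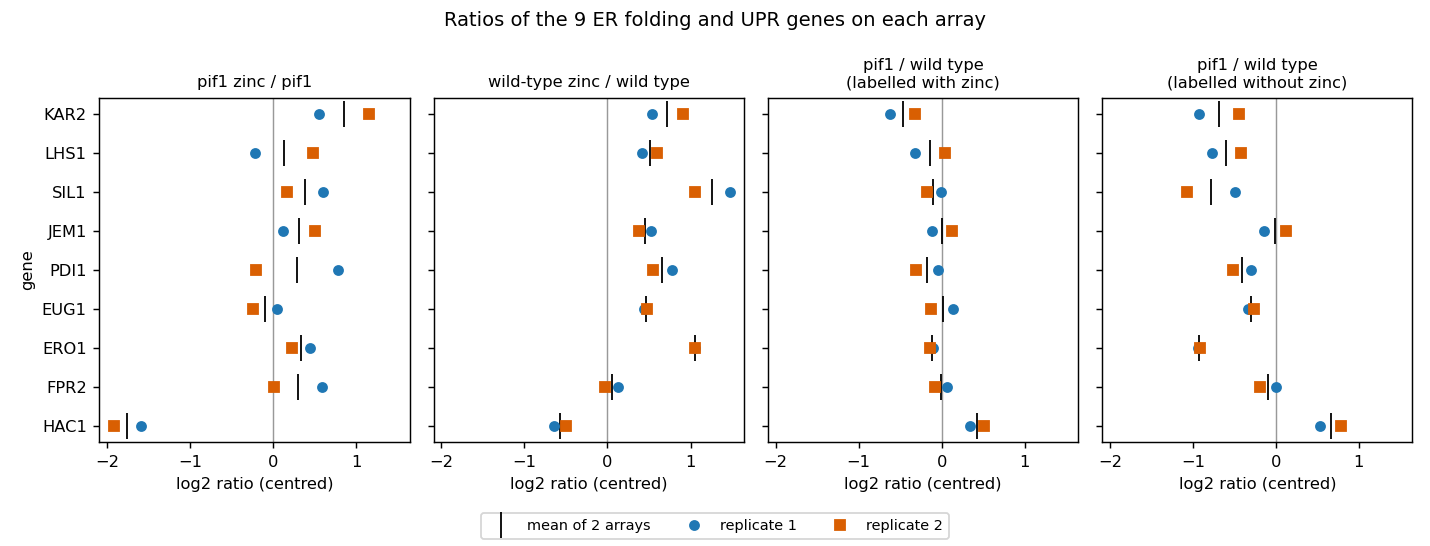
Each panel plots 1 comparison, with the centred log2 ratio on the x axis and 1 row per gene; the circle is replicate 1, the square replicate 2 and the vertical bar their mean. After zinc HAC1 lies left of 0 on all 4 arrays, at −1.59 and −1.92 in pif1 and −0.64 and −0.50 in wild type. KAR2, ERO1, SIL1 and JEM1 lie right of 0 on all 4.

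HAC1 encodes the bZIP transcription factor that carries the response to the nucleus. Its ratios after zinc were −1.59 and −1.92 in pif1 cells, and −0.64 and −0.50 in wild-type cells. Every array was below 0, and the pif1 values did not overlap those of the wild type. HAC1 fell by 1.76 ± 0.23 (SD, n = 2, limma adjusted p = 0.000103) in pif1, a 3.38-fold decrease, and ranked 20th from the lowest of 4272 genes. In wild type it fell by 0.57 ± 0.10 (n = 2, limma adjusted p = 0.0175), a 1.49-fold decrease. The wild-type call ended without replicate 1 (−0.50) or without replicate 2 (−0.64). It also ended with all arrays scaled to 1 spread (−0.42, limma adjusted p = 0.0805). The pif1 call held under all 8 alternatives (values from −1.92 to −1.13). The pif1 zinc arrays spread more than the others, so calls lost or kept without 1 array cannot be compared between the strains.

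The mutant arrays held HAC1 above 0. It read 0.34 and 0.50 on the arrays labelled with zinc, and 0.53 and 0.78 on those labelled without zinc. Neither mean passed, at 0.42 (95% interval 0.09 to 0.75, limma adjusted p = 0.295) with zinc and 0.66 (0.33 to 0.98, adjusted p = 0.0579) without. With a replicate block the mean without zinc passed (adjusted p = 0.024). Averaged over both media, an average added after the data were seen, HAC1 rose by 0.54 (0.31 to 0.77, n = 4, adjusted p = 0.022), where 3.56% of all genes passed as higher and 4.68% in either direction. That call ended when any 1 of the 4 mutant arrays was left out, with values between 0.48 and 0.60, and fewer of all genes passed in those fits as well.

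KAR2 encodes the Hsp70 chaperone of the ER lumen (BiP), which binds unfolded chains and helps pull new ones through the membrane. Its ratios after zinc were 0.55 and 1.15 in pif1 cells, and 0.53 and 0.91 in wild-type cells. All 4 were above 0 and the strains overlapped. KAR2 rose by 0.85 ± 0.42 (SD, n = 2, limma adjusted p = 0.0115) in pif1 and by 0.72 ± 0.27 (n = 2, limma adjusted p = 0.0231) in wild type, or 1.80-fold and 1.65-fold. The pif1 call ended without replicate 2 (0.55, adjusted p = 0.0904) and with scaled arrays (0.54, adjusted p = 0.122). The wild-type call ended without replicate 1 (0.91, adjusted p = 0.0842), without replicate 2 (0.53, adjusted p = 0.269) and with scaled arrays (0.54, adjusted p = 0.102).

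On the mutant arrays KAR2 was below 0 throughout. The values were −0.62 and −0.32 with zinc, and −0.92 and −0.45 without, and the 2 media overlapped. The mean without zinc, −0.68, ranked 44th from the lowest of 4722 genes but did not pass (95% interval −1.12 to −0.24, limma adjusted p = 0.137). With a replicate block it passed (adjusted p = 0.0119). The mean with zinc was −0.47 (−0.91 to −0.03, adjusted p = 0.467). The average over both media was −0.58 (−0.89 to −0.26, n = 4, adjusted p = 0.0514). With the block, which called 5 of the 9 genes and 10.1% of all genes in that average, it passed (adjusted p = 0.00437).

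LHS1, SIL1 and JEM1 encode partners of Kar2. SIL1 is a nucleotide exchange factor that resets it, and read 0.60 and 0.16 after zinc in pif1 cells, and 1.48 and 1.05 in wild-type cells. The strains did not overlap, but their difference on these arrays, −0.88, did not pass (limma adjusted p = 0.233). SIL1 rose by 1.26 ± 0.30 (SD, n = 2, limma adjusted p = 0.00166, 2.40-fold) in wild type, the highest zinc ratio of the 9 genes there, and its mean in pif1 was 0.38 ± 0.31 (n = 2, limma adjusted p = 0.158, and 0.0272 with the block). Without replicate 1 the wild-type value was 1.05 (adjusted p = 0.0508). On the mutant arrays SIL1 read −0.01 and −0.18 with zinc, and −0.49 and −1.07 without, where its mean of −0.78 ranked 29th from the lowest (95% interval −1.21 to −0.35, adjusted p = 0.0821, and 0.00846 with the block).

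LHS1 encodes an Hsp70 relative that also exchanges the nucleotide of Kar2. It read −0.22 and 0.48 after zinc in pif1 cells, and 0.42 and 0.60 in wild-type cells. The 2 pif1 arrays lay on either side of 0. The means were 0.13 ± 0.50 in pif1 (SD, n = 2, limma adjusted p = 0.652) and 0.51 ± 0.13 in wild type (n = 2, limma adjusted p = 0.0769, and 0.0109 with the block). On the mutant arrays it read −0.32 and 0.04 with zinc, and −0.77 and −0.42 without. The mean without zinc was −0.60 (95% interval −1.03 to −0.16, adjusted p = 0.175, and 0.0272 with the block).

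JEM1 encodes a membrane-bound J protein that stimulates Kar2. Its ratios after zinc were 0.12 and 0.50 in pif1 cells, and 0.52 and 0.38 in wild-type cells. All 4 were above 0 and the strains overlapped. The means were 0.31 (95% interval −0.03 to 0.65, limma adjusted p = 0.154) and 0.45 (0.11 to 0.80, limma adjusted p = 0.0515, and 0.0185 with the block). On the mutant arrays it lay between −0.14 and 0.13 in both media, with replicates on either side of 0.

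ERO1, PDI1 and EUG1 belong to oxidative folding. ERO1 encodes the thiol oxidase that feeds disulfide bonds into the ER by way of protein disulfide isomerase. It read 0.44 and 0.23 after zinc in pif1 cells, and 1.06 on both arrays in wild-type cells. The strains did not overlap, but their difference on these arrays, −0.72, did not pass (limma adjusted p = 0.128). ERO1 rose by 1.06 (SE 0.12, n = 2, limma adjusted p = 0.000523, 2.08-fold) in wild type, a call that held under all 8 alternatives. In pif1 its mean was 0.33 ± 0.15 (SD, n = 2, limma adjusted p = 0.0726, and 0.0362 with the block).

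ERO1 was also the 1 gene of the 9 that passed in a single comparison of the strains. It read −0.11 and −0.14 on the arrays labelled with zinc, and −0.94 and −0.91 on those labelled without. The 2 media did not overlap. Without zinc it fell by 0.93 ± 0.02 (SD, n = 2, limma adjusted p = 0.011), a 1.90-fold decrease in pif1, and ranked 20th from the lowest of 4722 genes. In that comparison 0.593% of all genes passed as lower, 1.44% as higher and 2.03% in either direction. The call ended without replicate 1 (−0.91) or without replicate 2 (−0.94). Most calls of all genes in this comparison ended too, so these fits say little about ERO1 itself. Averaged over both media ERO1 fell by 0.52 (95% interval −0.73 to −0.32, n = 4, adjusted p = 0.0148), where 1.12% of all genes passed as lower. That call, too, ended when any 1 mutant array was left out, where fewer of all genes passed as well.

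PDI1 encodes protein disulfide isomerase, which forms and reshuffles disulfide bonds in folding chains. It read 0.77 and −0.21 after zinc in pif1 cells, and 0.77 and 0.55 in wild-type cells. The pif1 arrays lay on either side of 0. PDI1 rose by 0.66 ± 0.16 in wild type (SD, n = 2, limma adjusted p = 0.0482) and averaged 0.28 ± 0.70 in pif1 (n = 2, limma adjusted p = 0.358). The wild-type value stood just inside the threshold. It passed under 3 of 8 alternatives, and the call ended without replicate 1 (adjusted p = 0.332), without replicate 2 (0.177), without centring (0.0706), with a dye term (0.0545) and with scaled arrays (0.106).

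EUG1 encodes a relative of PDI1. It read 0.05 and −0.24 after zinc in pif1 cells, and 0.44 and 0.48 in wild-type cells. The strains did not overlap, but their difference on these arrays, −0.56, did not pass (limma adjusted p = 0.317). EUG1 rose by 0.46 ± 0.03 in wild type (SD, n = 2, limma adjusted p = 0.0334), and its pif1 mean was −0.10 (95% interval −0.41 to 0.21, limma adjusted p = 0.627). The wild-type call ended without replicate 1 (adjusted p = 0.198), without replicate 2 (0.228), without centring (0.0678), with a dye term (0.0529) and with scaled arrays (0.141). On the mutant arrays PDI1 read −0.04 and −0.31 with zinc and −0.30 and −0.52 without. EUG1 read 0.14 and −0.12 with zinc and −0.33 and −0.27 without, and neither gene passed.

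FPR2, also called FKB2, encodes a peptidyl-prolyl isomerase of the ER that binds the drug FK506, and its gene lies next to EUG1. It read 0.58 and 0.01 after zinc in pif1 cells, and 0.12 and −0.03 in wild-type cells. Its means were 0.30 (95% interval −0.07 to 0.66, limma adjusted p = 0.191) and 0.05 (−0.32 to 0.41, limma adjusted p = 0.851). On the 4 mutant arrays it lay between −0.20 and 0.06. None of these means passed. Without replicate 2 the pif1 value was 0.58 and passed (adjusted p = 0.026).

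**Figure D2:**
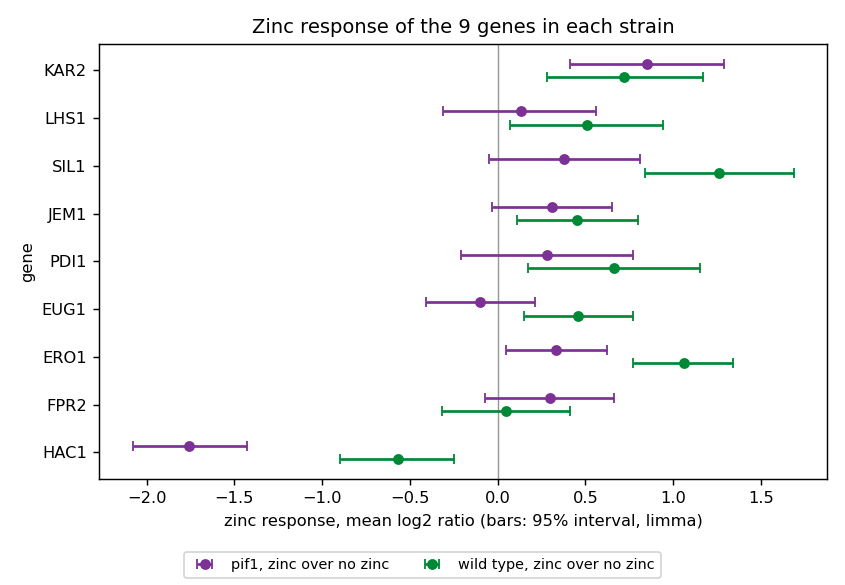
The mean zinc response (log2 ratio, x axis) is shown for each gene (rows) in pif1 cells, above, and in wild-type cells, below, with 95% intervals from limma. ERO1 and SIL1 sit at 0.33 and 0.38 in pif1 and at 1.06 and 1.26 in wild type, KAR2 at 0.85 and 0.72, and HAC1 at −1.76 and −0.57.

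Zinc was then averaged over both strains, again after the data were seen. In this average SIL1 (0.82), KAR2 (0.79), ERO1 (0.70), PDI1 (0.47) and JEM1 (0.38) rose and HAC1 (−1.17) fell, 6 of 9 genes, where 48.4% of all genes passed, 23.9% as higher and 24.5% as lower. With the replicate block 7 of the 9 passed, LHS1 added, where 58.3% of all genes did. SIL1, KAR2, ERO1 and HAC1 passed under all 10 alternatives. JEM1 and PDI1 each passed under 5 of 10. Both lost the call without either wild-type zinc array (adjusted p = 0.0558 to 0.0977 for JEM1 and 0.0777 to 0.152 for PDI1), and without 1 pif1 zinc array, which was replicate 2 for JEM1 (adjusted p = 0.056) and replicate 1 for PDI1 (adjusted p = 0.116). PDI1 then averaged 0.23 over the remaining arrays, and 0.72 without pif1 replicate 2.

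Between the strains, 0 of the 9 genes passed on the arrays labelled with zinc (limma), where 1.18% of all genes did, 0.988% as higher. At an unadjusted p under 0.05 there were 2, KAR2 and HAC1, where 9.81% of all genes reached it, and the replicate block also called 0 of the 9 (2.62% of all genes). On the arrays labelled without zinc 1 gene passed, ERO1, and with the replicate block 5 did: ERO1, SIL1, KAR2, LHS1 and HAC1, where 6.16% of all genes passed. In both fits the estimates were the same, below 0 for the 4 chaperone and oxidation genes and above 0 for HAC1. The median of the 9 genes was −0.10 with zinc and −0.41 without, beside −0.01 and 0.00 over all genes. These comparisons share kinds of RNA with the zinc comparisons, so the medians are not separate evidence of the zinc responses.

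The difference between the strains' zinc responses was tested over all 8 arrays with the media as labelled, and 0 of the 9 genes passed, with 0 of 3857 genes overall (0.0% called by limma, 230 genes at an unadjusted p under 0.05). With a replicate block 1 gene overall (0.0259%) and 0 of the 9 passed. With these labels HAC1 had the lowest adjusted p of the 9: its response was lower in pif1 by 0.71 (difference −0.71, 95% interval −1.04 to −0.38, adjusted p = 0.271), 8th from the lowest of 3857. It was also the 1 gene of the 9 at an unadjusted p under 0.05. For 6 of the 9 genes, beside 55.7% of the 3857 genes, the estimates from the zinc arrays and the mutant arrays had opposite signs. The averages of those 6 therefore lay near 0.

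With the media of the mutant arrays exchanged, an alternative chosen after the data were seen, the order of the genes changed. The exchange turns the sign of the mutant-array estimate. Genes with opposite estimates, ERO1 and SIL1 among them, therefore move away from 0 by construction. A pass under it is not a test of the exchange or of a strain difference. Exchanging the strains of the zinc arrays instead, which was not tested, would turn the sign of each of these differences. With the media exchanged the ERO1 difference was −0.76 (95% interval −1.05 to −0.48, limma adjusted p = 0.047). It was 1 of the 9 genes to pass, where 19 of 3857 genes did (0.493%, and 0.311% as lower). SIL1 was at −0.78 (−1.21 to −0.36, adjusted p = 0.172) and HAC1 at −0.47 (−0.80 to −0.15, adjusted p = 0.299), beside −0.10 for SIL1 and 0.04 for ERO1 with the media as labelled. With the replicate block ERO1 and SIL1 passed (adjusted p = 0.014 and 0.0158), 2 of the 9 genes, where 1.74% of all genes did. Without the block, the ERO1 call held without either pif1 zinc array and ended without any 1 of the other 6 (adjusted p up to 0.258).

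**Figure D3:**
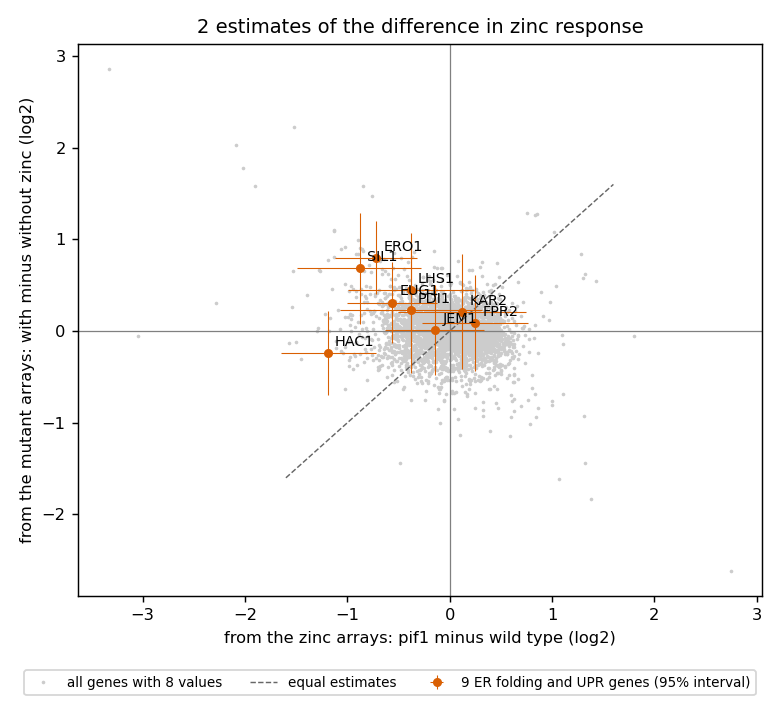
Each point is a gene, with the difference in zinc response estimated from the zinc arrays on the x axis (pif1 minus wild type, log2) and from the mutant arrays on the y axis (with zinc minus without, log2); grey points are all genes with 8 values and orange points the 9 genes with 95% intervals. ERO1 and SIL1 lie at −0.72 and −0.88 on the x axis and at 0.80 and 0.69 on the y axis, away from the dashed line of equal estimates, and HAC1 lies at −1.19 and −0.24.

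From the zinc arrays, ERO1 responded less in pif1 by 0.72 (difference −0.72, 95% interval −1.12 to −0.32), while the mutant arrays gave 0.80 (0.40 to 1.20). SIL1 was at −0.88 (−1.49 to −0.28) and 0.69 (0.08 to 1.29). EUG1 (−0.56 and 0.31), LHS1 (−0.38 and 0.45), PDI1 (−0.38 and 0.23) and JEM1 (−0.14 and 0.01) were also opposite in sign. The intervals of ERO1 and SIL1 excluded 0 on opposite sides. KAR2 (0.12 and 0.21), FPR2 (0.25 and 0.09) and HAC1 (−1.19 and −0.24) had the same sign in both. Neither source called any of the 9 on its own; HAC1 came nearest, from the zinc arrays (interval −1.65 to −0.72, limma adjusted p = 0.0695), where 11 of 4086 genes passed.

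The other genes of the pathway were followed in 5 lists with 47 genes in all. After zinc, 3 of 39 tested genes rose and 8 fell in pif1 (28.2%, beside 31.3% of all genes), and 3 of 40 rose and 2 fell in wild type (12.5%, beside 30.3%). Folding genes moved both ways. MPD1, another relative of PDI1, rose by 1.03 ± 0.11 in pif1 (SD, n = 2, limma adjusted p = 0.000969) and by 1.09 ± 0.16 in wild type (n = 2, limma adjusted p = 0.000754), on 4 of 4 arrays and under all 8 alternatives in each strain.

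Of 8 other folding and oxidation genes, 3 rose and 1 fell in pif1, and 2 rose and 1 fell in wild type (medians 0.33 and 0.16). CPR5, an ER cyclophilin, rose in pif1 (0.56 ± 0.41), as did ROT1 (0.61 ± 0.38), and EPS1, a membrane-bound disulfide isomerase, fell (−0.68 ± 0.37). In wild type CPR5 was at 0.47 (limma adjusted p = 0.0521), ROT1 at −0.12 and EPS1 at −0.19. In wild type the sulfhydryl oxidase ERV2 rose (0.56 ± 0.19), and its pif1 mean was 0.33 (limma adjusted p = 0.162). SCJ1, a J protein of the ER lumen, fell in wild type (−0.59 ± 0.01) and was at 0.06 in pif1. However, SCJ1 and ROT1 lie in a run of 75 identifiers in which the wild-type zinc values follow the pif1 values of the next identifier. Across that run the zinc responses of pif1 and wild type correlated at −0.078 by identifier (40 genes) and at 0.914 when the pif1 value was taken from the next identifier (51 genes), and these values do not show which strain's column is offset. The SCJ1 and ROT1 values of either strain may therefore belong to other genes, the rise of ROT1 in pif1 included. None of the 9 genes lies in the run.

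Of 3 signalling genes, 1 fell in pif1 and 0 passed in wild type. PTC2, a phosphatase that acts on Ire1, fell in pif1 (−0.91 ± 0.33, limma adjusted p = 0.00304) and was at −0.31 in wild type (adjusted p = 0.165). IRE1 was at −0.06 in pif1 (95% interval −0.55 to 0.43) and at 0.48 in wild type (−0.01 to 0.97). TRL1 was at −0.82 ± 1.12 in pif1, with arrays at −1.61 and −0.03, and at −0.75 ± 0.14 in wild type, and did not pass in either. In the zinc average over both strains TRL1 (−0.78, limma adjusted p = 0.0201) and PTC2 (−0.61, limma adjusted p = 0.0022) passed. There 41.0% of 39 list genes passed, 7 as higher and 9 as lower, beside 48.4% of all genes.

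Of 6 measured translocation genes, 1 fell in pif1 and 0 passed in wild type. It was SEC63 (−0.66 ± 0.25), whose J domain recruits Kar2 to the translocation channel. SEC63 was at −0.39 in wild type (limma adjusted p = 0.0798). Of 9 measured N-glycosylation genes, 2 fell in pif1 and 0 passed in wild type. STT3, the catalytic subunit of the oligosaccharyltransferase, fell by 1.42 ± 0.38 in pif1 (SD, n = 2, limma adjusted p = 0.000329) and was at −0.43 in wild type (adjusted p = 0.0589). The subunit OST1 fell in pif1 (−0.44 ± 0.07) and was at −0.30 in wild type (adjusted p = 0.11).

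Of 13 measured degradation genes in pif1, 0 rose and 3 fell, and of 14 in wild type, 1 rose and 1 fell. MNL1, the mannosidase that marks misfolded glycoproteins for destruction, read −1.38 and −1.22 after zinc in pif1 cells, and −0.61 and −0.91 in wild-type cells. It fell in both (limma adjusted p = 0.000284 and 0.00361), without overlap between the strains, though the wild-type call ended without replicate 2 (−0.61). Its difference in zinc response between the strains, −0.55, did not pass (limma adjusted p = 0.311). On the mutant arrays MNL1 read 0.14 and 0.24 with zinc, and 0.72 and 0.77 without, and without zinc it rose by 0.75 ± 0.04 (adjusted p = 0.0283), the 1 call among 43 list genes there (2.33%, beside 2.03% of all genes). Without either array that call ended, as did most calls of all genes in that comparison. In pif1 after zinc CDC48, the ATPase that pulls proteins out of the membrane, fell (−0.75 ± 0.02), as did HRD3, a partner of the ligase Hrd1 (−0.47 ± 0.10). Their wild-type means were 0.18 and 0.29. The differences in zinc response between the strains did not pass. They were −0.59 for CDC48 (limma adjusted p = 0.368) and −0.51 for HRD3 (limma adjusted p = 0.494). UFD1, a Cdc48 cofactor, rose in wild type (0.85 ± 0.04) and was at 0.42 in pif1 (adjusted p = 0.0594). Among the other list genes named here, leaving out 1 array ended the calls of ROT1, CPR5, SEC63, OST1 and HRD3 (without replicate 1, adjusted p = 0.0505 to 0.208) and of EPS1, OST1 and HRD3 (without replicate 2, 0.0614 to 0.103) in pif1. In wild type it ended those of SCJ1, ERV2 and UFD1 (without either, 0.0547 to 0.308). Scaling all arrays to 1 spread ended CDC48 in pif1 as well (−0.48, adjusted p = 0.11). Fitted on the 2 pif1 zinc arrays alone, EPS1, ROT1, CPR5, SEC63, OST1, CDC48 and HRD3 lost their calls (limma adjusted p = 0.0881 to 0.399). PTC2, MPD1, STT3 and MNL1 kept theirs. The former calls thus rest on the spread shared with the other arrays.

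**Figure D4:**
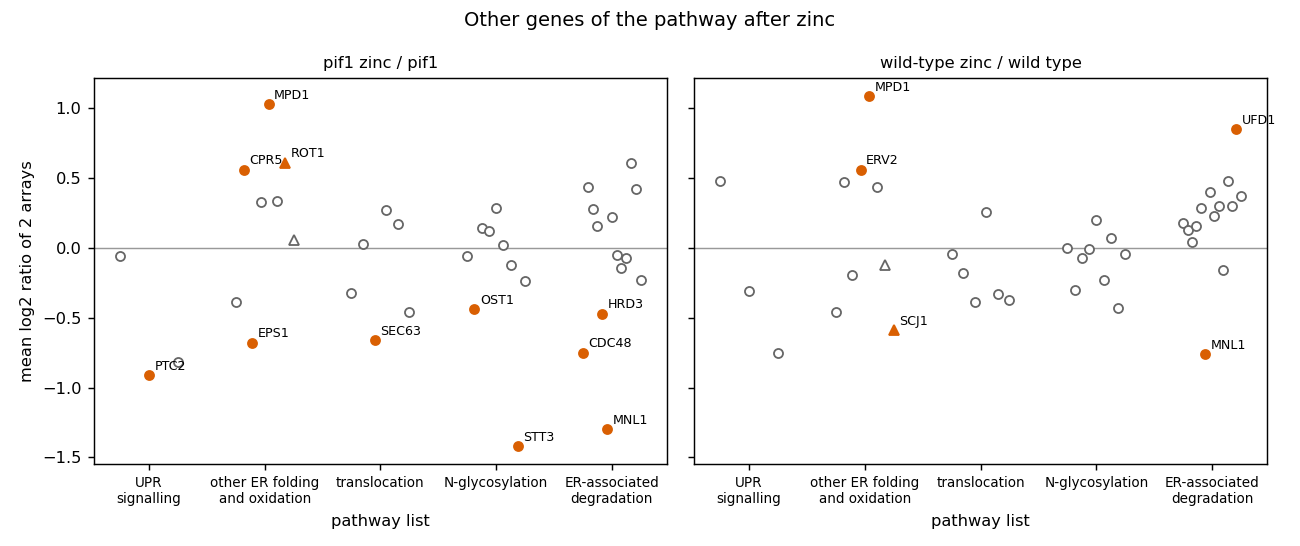
Mean log2 ratios after zinc (y axis) of the other pathway genes in 5 lists (x axis), in pif1 on the left and wild type on the right; filled points passed the test and are named, and triangles mark SCJ1 and ROT1, which lie in the run of 75 identifiers. MPD1 stands highest in both panels, at 1.03 and 1.09, and STT3 (−1.42) and MNL1 (−1.30) lowest in pif1.

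The 9 genes did not share 1 profile over the 8 arrays. The correlation of each gene with the mean of the other 8 was highest for ERO1 (0.98), SIL1 (0.93) and EUG1 (0.89). It was 0.80 for PDI1, 0.76 for LHS1, 0.68 for JEM1, 0.59 for KAR2, 0.26 for FPR2 and −0.71 for HAC1. Among 3857 genes with 8 values, those most like the mean profile of the 9 were MSS11, a transcription factor (0.987), FLR1, a drug transporter of the plasma membrane (0.986), ARN1, a siderophore transporter (0.985), the small heat shock protein gene HSP26 (0.98) and APJ1, a cytosolic J protein (0.979). They were chosen as the highest of 3857 correlations over 8 arrays that share kinds of RNA, and the values are descriptions. APJ1 averaged 0.13 after zinc in pif1 and 0.90 in wild type, and FLR1 0.39 and 1.28.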

How the data were processed

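The data were the authors' deposited table of log2 ratios, 1 column per array. Per the labels, 8 ug of total RNA went into each oligo(dT)-primed labelling, and spots under 120 um or below 100 fluorescence units in Cy3 and Cy5 were left out. The log base, normalization, background correction and scanner software are not given in the sources used here. Base 2 was taken from the size of the values and the direction of the mutant ratios from PIF1. That of the zinc ratios is as labelled. The column medians lay between −0.064 and 0.0745, and the authors' centring remains unknown.

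The 2 values larger in size than 16, both at PIF1, were treated as missing, and arrays were centred on their medians. Ratios were fitted with limma 3.58.1 under R 4.3.3, a coefficient for each comparison and the spread shared by the 8 arrays, for genes with a value on every array of the comparison. Adjustment ran over all genes tested, and the fit was tested on simulated data. The number of arrays limits the precision.

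Replicate numbers deviated together: the deviation of replicate 1 from its comparison's mean correlated between 0.438 and 0.552 over 6 pairs of comparisons (3857 genes), although by the labels replicate 1 has the first-named RNA in Cy5 on the zinc arrays and in Cy3 on the mutant arrays. The block is therefore given where it changed a call.

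The genes, the 5 lists and the rule for named genes (all 9; per list and comparison up to 4 that passed with 1 sign on both arrays; the 5 most similar profiles) were chosen with earlier results of these data known. TRL1 and IRE1 were added as the other signalling genes, and wild-type or pif1 values were given beside a named gene's call. Symbols came from NCBI's R64 table. Promoter motifs were planned but not analysed here.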

Additional observations from a re-analysis of the deposited data

How the results depend on the processing

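Of 621 values of the 9 genes under an alternative, 506 kept their sign and side of the threshold, 39 lost a call, 34 gained one and 42 changed sign, none of them a value that had passed. Scaled to 1 spread, arrays called 1 of the 9 genes (413 of all genes) for zinc in pif1, 2 (713) for zinc in wild type, 1 (371) for the mutant with zinc, 5 (440) without zinc, 5 (759) over both media, and 1174 of all genes for zinc in both strains. The differences of SIL1 and EUG1 were then 0.11 and 0.01. Fitted on their own 2 arrays, 526, 267 and 592 of all genes passed for zinc in pif1 and the mutant with and without zinc, with 6 of the 9 in the last, and 376 on the 4 mutant arrays. For zinc in wild type its own 2 arrays called 1944 of all genes and 8 of the 9. LHS1 (limma adjusted p = 0.00741) and JEM1 (limma adjusted p = 0.0181) were among them. Without centring FPR2 was at 0.00 (zinc in wild type, just below 0), JEM1 at −0.02 and EUG1 at −0.02 (mutant with zinc).

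The replicate block, paired by number, called 4 of the 9 for zinc in pif1, 5 for the mutant without zinc (291 of all genes) and 5 over both media (452), with 122 of all genes for the mutant with zinc and 1 for the difference. It changed no call of the 9 beyond those named with the values and, in the averages, LHS1 (adjusted p = 0.0128 for zinc and 0.0313 over both media) and SIL1 over both media (0.013).

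Leaving out 1 array gave 2 to 4 calls among the 9 for zinc in pif1, 1 to 2 for zinc in wild type (441 to 477 of all genes), 0 for the mutant without zinc (1 to 13 of all genes) and 0 over both media (39 to 46). It gave 2 to 3 of all genes for the mutant with zinc and 0 to 13 for the difference. In the same fits the values ranged for zinc in pif1 from −0.21 to 0.77 (PDI1), −0.22 to 0.48 (LHS1) and −0.24 to 0.05 (EUG1), and for zinc in wild type from −0.03 to 0.12 (FPR2). For the mutant with zinc they ranged from −0.32 to 0.04 (LHS1), −0.12 to 0.14 (EUG1), −0.12 to 0.13 (JEM1) and −0.08 to 0.06 (FPR2). JEM1 ranged from −0.14 to 0.13 without zinc and from −0.07 to 0.07 over both media. The differences ranged from −0.14 to 0.21 (LHS1), −0.24 to 0.04 (SIL1), −0.01 to 0.09 (ERO1), −0.16 to 0.03 (JEM1) and −0.32 to 0.17 (PDI1).

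From the zinc arrays alone 11 of all genes differed (6 with their own spread), with ERO1 at −0.72 and LHS1 at −0.38. From the mutant arrays alone 6 did (15 with their own spread), with PDI1 at 0.23, SIL1 at 0.69, JEM1 at 0.01 and EUG1 at 0.31. With the media of the mutant arrays exchanged 1 of the 9, ERO1 (−0.76), and 19 of all genes differed, with KAR2 at −0.04 and LHS1 at −0.42. That exchange and the averages over strains and media were chosen after seeing the data, and the exchange enlarges the differences of genes with opposite estimates by construction. The cause of these changes was not tested. No intensities or backgrounds were used here.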
